A study of Mus musculus with 77 samples.

Results

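The microRNAs (miRNAs) of 4 lymphocyte populations of the mouse spleen were profiled, with 1 library each: regulatory T cells, CD4 T cells, NK cells and B cells. The comparison set the 2 T cell populations against NK and B cells, and then each population against the other 3. The libraries were taken by their sample labels, as the 4 lymphocyte libraries among 24 numbered miRNA libraries, in a series of 77 samples. The series was made to find molecules that separate microglia from other immune and neural cells, and the lymphocytes were among its peripheral populations.

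All 4 populations were sorted by flow cytometry from the spleens of C57BL/6 mice, and no treatment was recorded. The labels name the sorting markers as CD4 with Foxp3 for regulatory T cells, CD3 with CD4 for CD4 T cells, NK1.1 for NK cells and B220 for B cells. The labels name neither the age or sex of the mice nor how many were pooled. The CD3 and CD4 gate does not name Foxp3, so the CD4 T cell library may itself contain regulatory cells. NK1.1 also marks NKT cells, and B220 also marks plasmacytoid dendritic cells.

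A miRNA is a short RNA that guides the silencing machinery to messenger RNAs, mainly by pairing of its seed, bases 2 to 8 from the 5′ end. Members of a family share that seed and therefore many potential targets, although they may be transcribed from different loci. In lymphocytes, miR-150 is abundant in mature resting cells and targets the transcription factor Myb, miR-181a tunes T cell receptor sensitivity during thymic development, and miR-155 and miR-146a are induced by activation and act on immune signalling.

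Sequences of miRNAs named in the comparison of T cells with B and NK cells are shown with the seed in capitals (RefSeq, GRCm38.p6). Only miR-132 among them passed the test given below. The first 4 had higher values in both T cell libraries and the last 4 lower values, and none shares a seed with another.
miR-132-3p: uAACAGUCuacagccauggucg
miR-155-5p: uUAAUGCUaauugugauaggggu
miR-15b-5p: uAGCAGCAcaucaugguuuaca
miR-125a-5p: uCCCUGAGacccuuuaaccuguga
miR-342-3p: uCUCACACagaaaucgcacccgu
miR-340-5p: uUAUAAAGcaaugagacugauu
miR-29c-3p: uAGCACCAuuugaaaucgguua
miR-22-3p: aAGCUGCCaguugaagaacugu
The mature miR-132 lies at chr11:75173723-75173744 on the plus strand, outside the span of any protein-coding gene in the annotation used. The miR-342-3p sequence lies at chr12:108658680-108658702 on the plus strand, within the span of Evl, and miR-15b lies at chr3:69009775-69009796, within Smc4. The miR-340-5p sequence is within Rnf130 and the miR-125a sequence within Spaca6. Of 27 probes looked up, 24 had a mature sequence in the table used. A probe named without an arm was matched to the arm that carried the unsuffixed name in older nomenclature.

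The NanoString nCounter assay counts fluorescent barcodes on single captured molecules. The panel held 603 probes, of which 566 were for mouse miRNAs. Values are the deposited normalised signal, and the counts behind them were recovered. Totals were 18919 counts in regulatory T cells, 52607 in CD4 T cells, 15598 in NK cells and 75635 in B cells, so each side held a shallow and a deep library. The background limit, the mean plus 2 SD of 33 viral probes, was a signal of 5.21, 3.86, 4.51 and 2.95 in the same order. Between 118 and 162 of the 566 mouse miRNAs lay above it. The 79 miRNAs with a mean signal above 10 over the 4 libraries were tested, and 72 of them lay above background in all 4. No pair of libraries agreed within sampling noise (chi-square per degree of freedom 27.6 to 65.0). Signals of different probes are not calibrated against each other. In sorted bulk samples, fewer cells of a type and less RNA per cell cannot be told apart.

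Marker levels were examined first. The 400-gene panel of the same study (MG400), measured in separate libraries of these populations, holds none of the lymphocyte genes listed as defining markers, and 2 of the listed myeloid genes. Csf1r, the receptor for macrophage colony-stimulating factor, had 24.8 in regulatory T, 1.96 in CD4 T, 71.8 in NK and 4.56 in B cells, against panel medians of 24.8, 13.7, 59.4 and 10.4. Cd14, a co-receptor for bacterial lipopolysaccharide on monocytes, had 20.9, 8.49, 24.2 and 9.78 in the same order, below the median in each. Csf1r was above the median in NK cells alone. The next genes were picked for their values and so do not test the labels. Ccl5, a chemokine of cytotoxic cells, had 25761 in NK cells, against 219 in regulatory T, 164 in CD4 T and 12.4 in B cells. Blnk, a B cell receptor adaptor, had 2937 in B cells, against 24.8, 22.2 and 47.7 in regulatory T, CD4 T and NK cells.

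Among the miRNA markers of other cells, the NK library stood apart. The erythroid miRNAs miR-451, miR-144 and miR-486 were above background there alone, with a summed signal of 49.87 in NK cells, against at most 7.35 in each other library. The granulocyte and monocyte miRNA miR-223 had 242.10 in NK cells, against 2.75 in regulatory T, 11.99 in CD4 T and 13.40 in B cells. The endothelial miR-126 arms and the liver miR-122 were at or under background in all 4 libraries, as were the 4 stromal and 4 muscle miRNAs in NK and B cells. In regulatory T cells 1 stromal and 2 muscle miRNAs passed it, and in CD4 T cells 1 of each. Of 3 epithelial miRNAs, 1 passed it in regulatory T, 1 in CD4 T, 2 in NK and 3 in B cells, and 1 of 2 microglial miRNAs passed it in NK cells. The epithelial miR-200b had 28, 28, 21 and 42 counts in regulatory T, CD4 T, NK and B cells. Its signal in 20 other libraries of the series followed depth inversely (Spearman rho -0.93), and the part of probe background was not tested. The part of other cells in the NK results was not tested.

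T cells differed from B and NK cells in miR-132, which lay far above both. It had 33.04 in regulatory T and 33.48 in CD4 T cells, against 3.63 in NK and 2.92 in B cells. The T cell libraries held 36 and 81 counts of it, against 4 and 12 in NK and B cells, and both of those values were under the background limit of their libraries. This miRNA is best known as a product of the transcription factor CREB in neurons and is also made in stimulated immune cells. The log2 difference was 1.70 ± 0.31 (SE, 2 libraries a side) with limma's adjusted p = 0.0478. It passed the minimum mean signal of 10 only through its T cell values, as did miR-125a-5p. The call was lost without the NK library (adjusted p = 0.212) and without the B library (0.177), in fits where the lone remaining library is assumed to vary like the other side. Over the settings that kept all 4 libraries the adjusted p ran from 9.4e-06 (DESeq2) to 0.170 (limma without a trend). Both T cell values stayed above both others after rescaling to the total or to the 100 highest miRNAs and after quantile normalisation. The call itself was lost in each of these scalings (limma adjusted p = 0.0796, 0.0864 and 0.0714 in that order). It was also lost with the quasi-likelihood test of edgeR (adjusted p = 0.0766).

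The miR-132 signal in both T cell libraries lay above its range in the 20 other numbered libraries, though not beyond counting error. In those libraries, which are microglia, macrophages and other myeloid cells, it ran from 1.65 to 26.48, with a median of 12.3. The 95% counting interval of the regulatory T cell value, 23.1 to 45.7, took in the highest of these. That of CD4 T cells, 26.6 to 41.6, began just above it. Its counts in the 20 libraries were 2 to 11, against 36 and 81 in the T cell libraries, but total counts also differed. The background limits of the 20 libraries ran from 2.38 in brain microglia to 38.0 in liver macrophages. Some of these limits were above the T cell signals of miR-132, so the ranges are not on a like footing. The signals of those 20 libraries followed their depth inversely (Spearman rho -0.78 over 20 libraries that differ in cell type and depth). The sister miRNA of the same seed, miR-212, was at 0.92, 1.24, 0.91 and 0.24 in regulatory T, CD4 T, NK and B cells, under background in all 4. Both come from neighbouring hairpins on chromosome 11, and miR-212 differs from miR-132 by A10C, C14U, U17C, U20C and G22A, counted from 1 at the 5′ end.
miR-212-3p: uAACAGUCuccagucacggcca

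No other miRNA passed the test. The call of 1 miRNA higher in T cells is 1.27% of the 79 tested, and limma called 0 lower (0%). At an unadjusted p under 0.05 there were 8 higher (10.1%) and 2 lower (2.53%). The quasi-likelihood test of edgeR on the recovered counts called 0, with 13 at an unadjusted p under 0.05, and DESeq2 called 9, of which 7 were higher and 2 lower. An exact permutation test of 2 against 2 libraries cannot go below p = 0.333. The spread here is between 2 populations of a side, each measured once, and nothing in the labels says how many animals stand behind a library.

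Without a model, both T cell values lay above both others for 13 miRNAs (16.5% of those tested) and below both for 18 (22.8%), which together are 39.2%. Scaled to the 100 highest miRNAs, these became 11 and 24, and after quantile normalisation 16 and 17. The median log2 difference over all 79 was 0.03, and rescaling to the total or to the 100 highest miRNAs moved it to -0.10 and -0.09. The members named next were chosen by size among the miRNAs whose sides did not overlap.

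**Figure D1:**
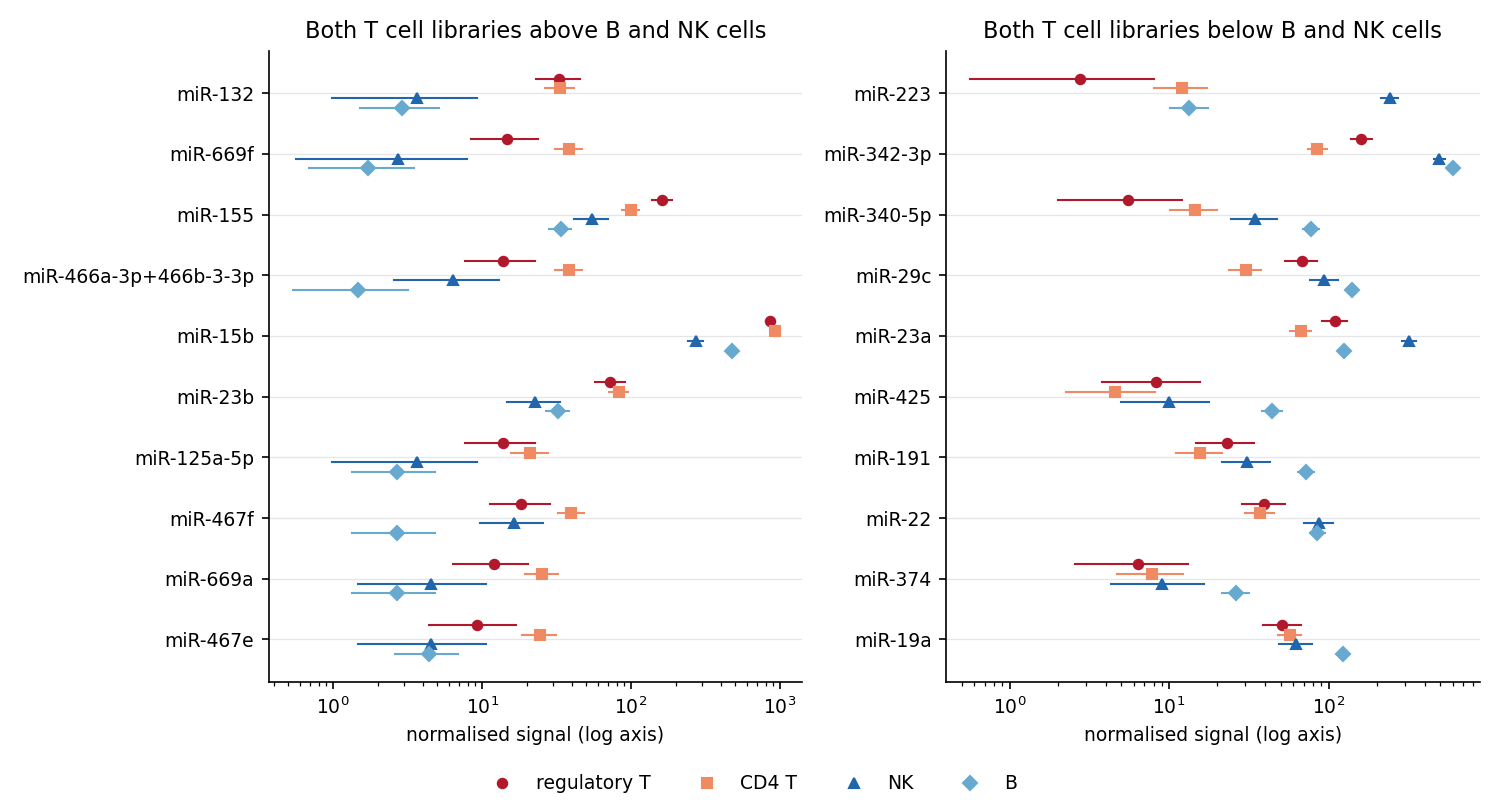
Normalised signal (log axis) of the 10 miRNAs with the largest positive (left) and negative (right) log2 difference of T cells against B and NK cells, by library. Points are single libraries and lines are exact 95% Poisson intervals of the counts, which cover counting error only. The regulatory T and CD4 T points of miR-132 coincide near 33, above NK and B cells.

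Among those with higher values in T cells, miR-155, which supports effector and regulatory T cell responses, had 161.52 in regulatory T and 99.19 in CD4 T cells, against 54.40 in NK and 33.63 in B cells (log2 difference 1.37, limma adjusted p = 0.374). Regulatory T cells had the highest value, and the sides did not overlap. In 20 other libraries miR-155 ran from 25.6 to 837, highest in gut macrophages, so the T cell values were not high for the series.

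The miR-125a-5p signal, of a miRNA reported to stabilise regulatory T cells in mice, was 13.77 in regulatory T and 21.08 in CD4 T cells, against 3.63 in NK and 2.68 in B cells (1.05, adjusted p = 0.126). Both NK and B values were under background. Its relative miR-125b-5p, of the same family, had 3.67, 0.83, 5.44 and 0.97 in regulatory T, CD4 T, NK and B cells and was above background in NK cells alone. In lung macrophages miR-125a-5p reached 123.

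On the T cell side, 5 of the 10 miRNAs, miR-669f, miR-467f, miR-669a, miR-467e and the shared probe for miR-466a-3p and miR-466b-3-3p, belong to the large repeat-derived group of mouse miRNAs that includes miR-297, miR-466, miR-467 and miR-669. The group has 33 probes on the panel, and 6 were tested. This grouping was made after the values were seen. All of the 5 passed the minimum mean signal only through their T cell values, so their number supports nothing about the group. Over all 33 probes, 13 lay above background in regulatory T, 14 in CD4 T, 14 in NK and 3 in B cells, and their summed signals were 195, 293, 163 and 58.9 in the same order. The strongest, miR-669f, had 14.68 in regulatory T and 38.02 in CD4 T cells, against 2.72 in NK and 1.71 in B cells (adjusted p = 0.126). In all 5, CD4 T cells had the highest value of the 4. The sixth, miR-466g, behaved otherwise, at 31.20, 13.23, 38.08 and 8.53 in regulatory T, CD4 T, NK and B cells. Near-identical copies can share probe signal, so the separate members are uncertain.

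Among the miRNAs with lower values in T cells, miR-342-3p, made from an intron of Evl, showed the widest separation of the sides. It had 160.60 in regulatory T and 85.14 in CD4 T cells, against 495.99 in NK and 601.25 in B cells. The log2 difference was -2.13 ± 0.67 (limma adjusted p = 0.151), and with DESeq2 on the counts its adjusted p was 0.0028. The sides stayed apart after rescaling to the total or to the 100 highest miRNAs and after quantile normalisation. NK and B cells were thus close to each other, and within the T cell side regulatory T cells had the higher value. In the 20 other libraries it ran from 6.36 to 1013, highest in microglia of the cortex, with a median of 36.5, so all 4 lymphocyte populations lay above that median.

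The miR-340-5p signal was 5.51 in regulatory T and 14.47 in CD4 T cells, against 34.46 in NK and 77.75 in B cells (-1.68 ± 0.50, adjusted p = 0.151, DESeq2 adjusted p = 0.0028). It passed the minimum mean signal of 10 only through its NK and B cell values (T cell mean 9.99). Its value in the 20 other libraries was 12.8 or more, so the regulatory T cell value was the lowest of the 24. That value rests on 6 counts and lay close to the background limit of 5.21, whereas the limits of the 20 other libraries reached 38.0. The miR-22 signal was even within each side, at 39.46 and 37.20 in regulatory T and CD4 T cells, against 87.05 and 85.06 in NK and B cells (-0.99, limma adjusted p = 0.455).

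The most negative log2 difference was that of miR-223, at 2.75 and 11.99 in regulatory T and CD4 T cells, against 242.10 and 13.40 in NK and B cells (adjusted p = 0.387). This miRNA passed the minimum mean signal only through its NK and B cell values, and without the NK library the difference was -0.48. The B cell value of 13.40 was close to the CD4 T cell value of 11.99, and in the 20 other libraries miR-223 reached 11442, in Ly6C low bone marrow cells.

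The 2 other markers named for these populations did not separate the sides. The miR-150 signal was 488.24 in regulatory T and 2574.93 in CD4 T cells, against 758.94 in NK and 1594.41 in B cells (0.03, adjusted p = 0.990). The highest value and the lowest were both in T cells. All 4 lay above the 20 other libraries, where neutrophils had the highest value, 273. The miR-181a signal was 78.01 in regulatory T and 368.67 in CD4 T cells, against 153.24 in NK and 315.62 in B cells (-0.34, adjusted p = 0.890), and its range in the 20 other libraries was 15.4 to 539.

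In these single libraries, the values of members of the same seed family did not keep together across the sides. In the miR-15 and miR-16 family, whose members restrain the cell cycle and the survival factor Bcl2, miR-15b had 854.42 in regulatory T and 929.54 in CD4 T cells, against 271.12 in NK and 478.66 in B cells (1.28, limma adjusted p = 0.477). Its relative miR-15a ran the other way, at 83.51 and 88.45 in regulatory T and CD4 T cells, against 115.16 and 147.45 in NK and B cells (-0.55, adjusted p = 0.863). Both orders held after rescaling to the total or to the 100 highest miRNAs and after quantile normalisation. The nearest miR-15a values, in CD4 T and NK cells, rest on 214 and 127 counts, a gap of -0.35 log2. Counting error in that gap was not tested, and rescaling whole libraries does not address it. The third member, miR-16, overlapped, at 1106.80, 662.12, 877.72 and 1226.39 in regulatory T, CD4 T, NK and B cells, though both T cell values were below the others after quantile normalisation.

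The difference between miR-15a and miR-15b is A12C, G20A, U21C and G22A, from miR-15a to miR-15b, and the seeds are the same. Mature miR-16 is encoded beside each of them, within Smc4 on chromosome 3 and on chromosome 14, and its probe reads both copies.
miR-15a-5p: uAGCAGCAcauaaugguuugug
miR-15b-5p: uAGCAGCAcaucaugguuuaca
miR-16-5p: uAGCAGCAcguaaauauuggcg

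The miR-23, miR-24 and miR-27 genes stand in 2 clusters, in which an a-type member of miR-23 and of miR-27 is replaced by a b-type. The miR-23b signal was 72.50 in regulatory T and 82.66 in CD4 T cells, against 22.67 in NK and 32.17 in B cells (1.24, adjusted p = 0.350). In contrast, miR-23a had 109.21 and 66.96 in regulatory T and CD4 T cells, against 320.08 and 125.52 in NK and B cells (-1.14, adjusted p = 0.570). Its difference was -0.50 without the NK library and -1.79 without the B library, and its sides overlapped after quantile normalisation. Its nearest values across the sides, in regulatory T and B cells, rest on 119 and 515 counts. That gap was -0.185 log2, and counting error in it was not tested. Its cluster neighbour miR-27a, the next hairpin downstream on chromosome 8, did not follow it, with 78.01 and 48.36 in regulatory T and CD4 T cells, against 35.36 and 35.58 in NK and B cells (0.66, adjusted p = 0.726). The sides of miR-27a overlapped when scaled to the 100 highest miRNAs. The miR-27b signal was low, from 2.68 in B to 6.42 in regulatory T cells, and miR-24 had at most 9.09.
miR-23a-3p: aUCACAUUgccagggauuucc
miR-27a-3p: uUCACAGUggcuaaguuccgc
miR-27b-3p: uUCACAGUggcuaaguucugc

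In the miR-29 family, which limits interferon gamma and T-bet in T cells, miR-29c had 67.91 in regulatory T and 30.17 in CD4 T cells, against 94.30 in NK and 140.87 in B cells (-1.17, adjusted p = 0.455, and -0.69 without the CD4 T library). Its near-copy miR-29a, which differs from it by C10U (miR-29a first), overlapped between the sides at 384.53, 276.09, 169.56 and 379.47 in regulatory T, CD4 T, NK and B cells. The miR-29b signal also overlapped, at 174.37, 99.19, 108.81 and 227.39. Probes for sequences that differ by a single base may share signal. CD4 T cells had the lowest value of the 4 for miR-29b and miR-29c, and NK cells for miR-29a.
miR-29a-3p: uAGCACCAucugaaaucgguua
miR-29c-3p: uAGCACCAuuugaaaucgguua

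**Figure D2:**
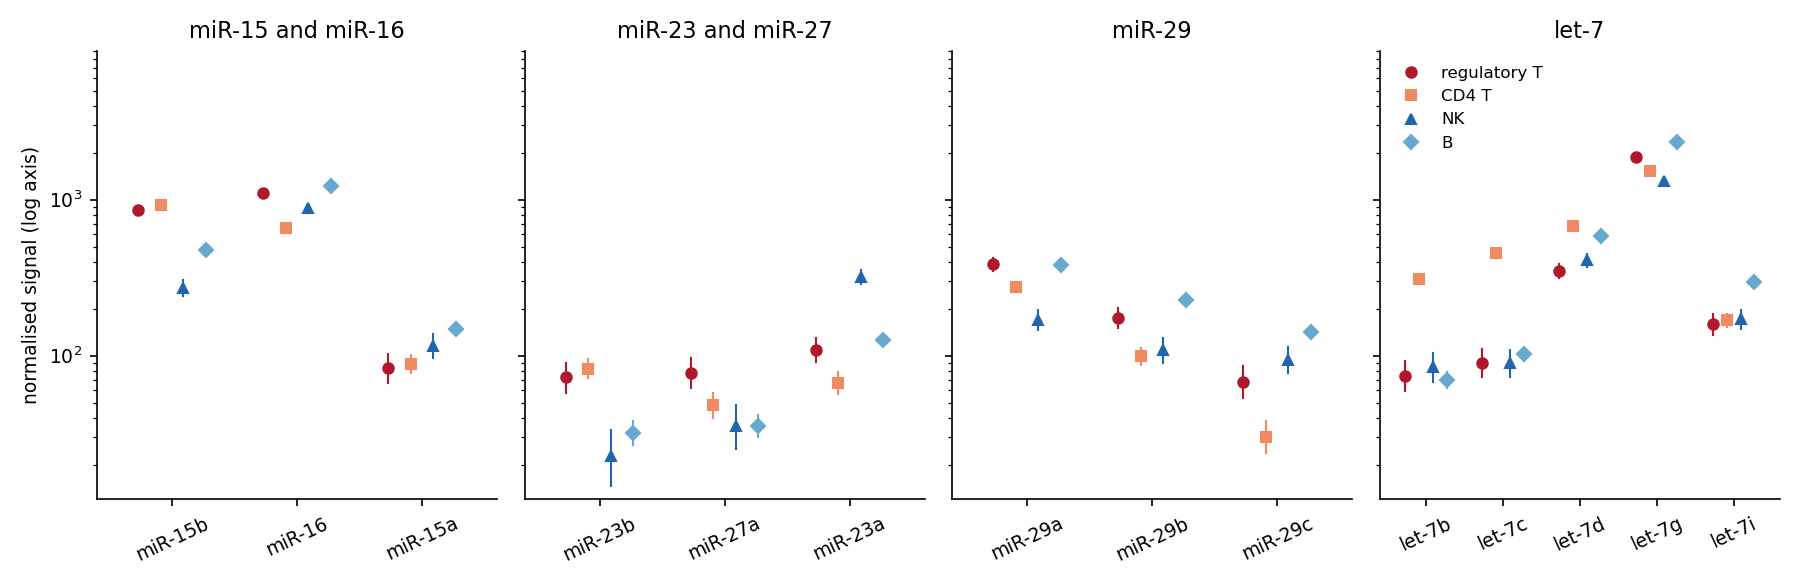
Normalised signal (log axis, shared) of related miRNAs in the 4 libraries, with exact 95% Poisson intervals of the counts as lines. miR-15b and miR-23b lie above NK and B cells in both T cell libraries while miR-15a and miR-23a lie below, and let-7b and let-7c are high in CD4 T cells alone.

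By family and by list the counts of non-overlapping members were small. Of 7 tested members of miR-17-92 and its paralogues, which promote lymphocyte growth and survival, 0 lay above and 3 below in T cells (median log2 difference -0.32, against 0.03 over all tested). The 3 were the shared probe for miR-106a and miR-17, miR-19a and miR-93. The shared probe was nearly tied with NK cells. It had 36.71 and 35.54 in regulatory T and CD4 T cells, against 37.18 and 73.12 in NK and B cells. The miR-19a signal was 51.39 and 57.04 in regulatory T and CD4 T cells, against 62.57 and 122.83 in NK and B cells. The 3 became 5 with 2 of the scalings and 2 with another. Of 8 tested let-7 members 0 lay above and 1, let-7i, lay below. It too was nearly tied with NK cells, at 158.77 and 168.22 in regulatory T and CD4 T cells, against 171.37 and 298.80 in NK and B cells.

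The list of miRNAs known from T cells had 1 above (miR-155) and 2 below (miR-342-3p and miR-29c) of 10 tested, with a median of -0.11. The regulatory T cell list had 3 above (miR-155, miR-125a-5p and miR-27a) and 2 below (miR-22 and miR-223) of 10, with a median of 0.29. Of 5 tested miRNAs of the B cell list, 2 lay above in T cells and 0 below, and these were miR-155 and miR-132, so the miRNA called higher in T cells is one listed for B cells. The NK cell list had 3 above and 2 below of 12 (median 0.01). Over all 79 tested the shares were 16.5% above and 22.8% below.

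Regulatory T cells differed most from the other CD4 T cells in miR-21, with a signal of 1249.05 against 162.84. In this comparison 4 miRNAs were past 2-fold higher on the scale of log2(value + 10), which is 5.06% of those tested, and 5 were past 2-fold lower (6.33%). These populations have 1 library each, so there is no replicate check, and intervals cover counting error only. The miR-21 counts were 1361 in regulatory T and 394 in CD4 T cells, and the ratio of signals was 7.67 (95% interval 6.85 to 8.60). This miRNA is induced by STAT3 and by T cell activation. NK cells had 409.85 and B cells 233.73, and the highest of the 20 other libraries was 404, so the regulatory T cell value was the highest of the 24.

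The regulator of NF-kB signalling miR-146a, needed in mouse regulatory T cells to restrain Th1 responses, had 238.61 in regulatory T and 69.02 in CD4 T cells (ratio 3.46, 2.84 to 4.22). Its values were 48.96 in NK and 110.16 in B cells. The cortical microglia library, the highest of the 20 others, had 238, much like regulatory T cells. Both miR-21 and miR-146a stayed past 2-fold with pseudocounts of 1 and 50, under rescaling to the total or the 100 highest miRNAs, and after quantile normalisation. Settings that changed only the minimum or raised low values to background could not move these values.
miR-21a-5p: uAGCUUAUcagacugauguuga
miR-146a-5p: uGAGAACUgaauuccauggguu

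The other 2 higher miRNAs, miR-34c and miR-543, had an unusual count pattern. The miR-34c signal was 1504.18 in regulatory T and 546.40 in CD4 T cells (ratio 2.75, 2.56 to 2.96), and 1144.31 in NK and 453.07 in B cells. The counts behind these values were nearly level, 1639, 1322, 1262 and 1859, although the totals differed 4.85-fold. Over the 79 tested miRNAs the highest count was 7.78 times the lowest at the median, and miR-34c and miR-466g were the 2 with a ratio under 1.5. The counts of miR-543 were 156 in regulatory T, 154 in CD4 T and 89 in NK cells. In the 20 other libraries the signal of miR-34c and of miR-543 followed depth inversely (Spearman rho -0.46 and -0.76), and gut macrophages, at 3408 counts in all, had the highest signal of both. The values of miR-34c and miR-543 therefore moved with library depth, whose part in the difference was not tested, nor was that of probe background.

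**Figure D3:**
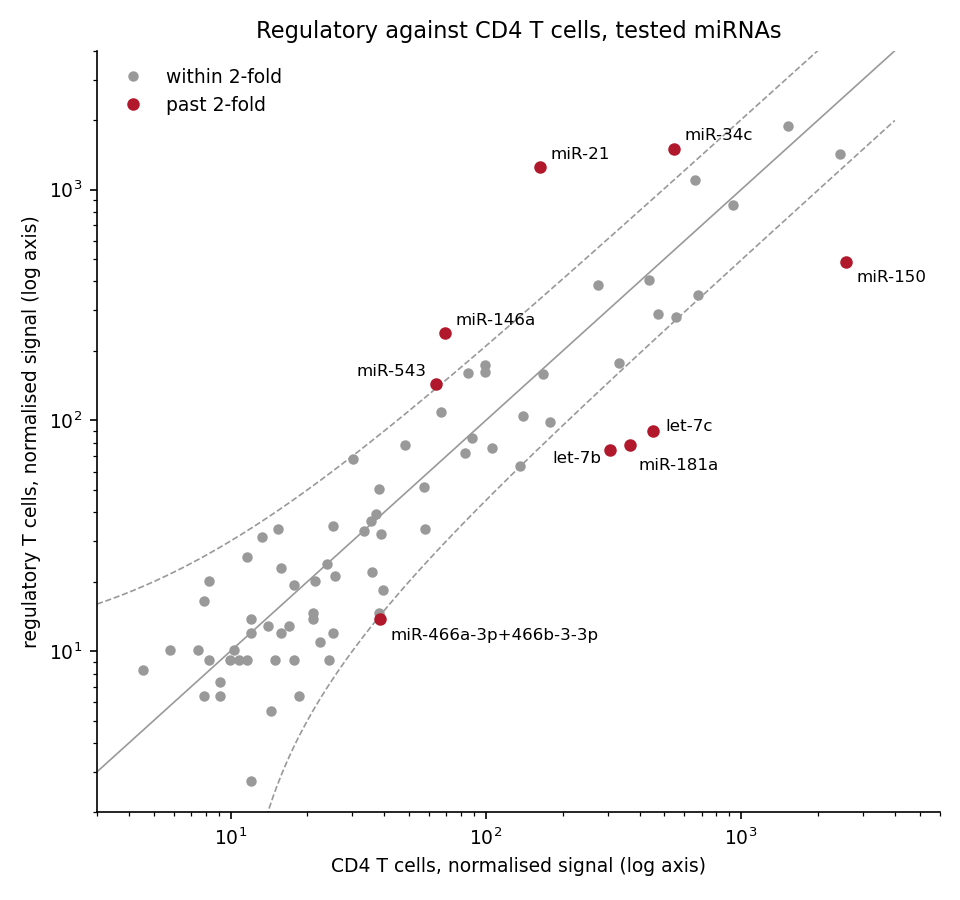
Normalised signal of 79 tested miRNAs in regulatory T cells (vertical) against CD4 T cells (horizontal), both log axes. The solid line marks equal values, the dashed lines 2-fold on the scale of value + 10. miR-21 lies farthest above the lines and miR-150 farthest below.

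Among the miRNAs lower in regulatory T cells, miR-150 had 488.24, against 2574.93 in CD4 T cells, so that CD4 T cells had 5.27 times the signal (95% interval 4.83 to 5.77). The miR-181a signal was 78.01 in regulatory T and 368.67 in CD4 T cells (CD4 T over regulatory T 4.73, 3.78 to 5.98). Regulatory T cells had the lowest value of all 4 populations for both. The order of NK and B cells, the other shallow and deep pair, was the same in these 2 miRNAs: miR-150 was 2.10 times higher in B than in NK cells.

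Of the let-7 family, let-7b and let-7c were past 2-fold. Regulatory T cells had 89.94 of let-7c and 74.34 of let-7b, against 452.16 and 307.92 in CD4 T cells, and the ratios of CD4 T over regulatory T cells were 5.03 (4.09 to 6.25) and 4.14 (3.29 to 5.28). NK cells had 89.77 and 84.33 and B cells 102.36 and 69.70 of let-7c and let-7b, so the CD4 T library alone was high. That library also exceeded the 20 other libraries, whose highest values were 190 for let-7c and 199.6 for let-7b. The more abundant let-7g had 1885.04 in regulatory T and 1521.81 in CD4 T cells (1.24, 1.17 to 1.31). The let-7 family as a whole blocks proliferation in many cells. The let-7b and let-7c sequences differ at a single base, A17G from let-7c to let-7b, and their probes may share signal, and let-7g differs from both at more bases.
let-7c-5p: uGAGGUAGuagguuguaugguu
let-7b-5p: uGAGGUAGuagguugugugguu
let-7g-5p: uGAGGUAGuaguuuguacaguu

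The fifth lower miRNA was the shared miR-466a-3p and miR-466b-3-3p probe, at 13.77 in regulatory T and 38.44 in CD4 T cells, on 15 and 93 counts. It was past 2-fold in 4 of the 8 settings that kept it, and its sign held in each. The let-7b, let-7c, miR-150 and miR-181a differences were past 2-fold in 9 of 9. These tallies include the main setting. They also include settings that changed only the minimum or raised low values to background, which could not move these differences. Of the miRNAs above NK and B cells in both T cell libraries, miR-132 had a ratio of regulatory over CD4 T cells of 0.99 (0.65 to 1.48) and miR-15b of 0.92 (0.85 to 0.99), while miR-155 had 1.63 and miR-669f 0.39.

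Depth differed within each side in the same sense, so the pair of NK and B cells was set beside the pair of T cells. Of the 9 miRNAs past 2-fold between the T cell libraries, 6 had the same sign between NK and B cells, and 2 of these, miR-34c and miR-150, were past 2-fold there too. The difference of miR-146a had the opposite sign (1.65 for regulatory minus CD4 T cells, -1.03 for NK minus B cells, log2). For let-7c the values were -2.21 and -0.17, and for miR-21 they were 2.86 and 0.78. Over the 79 tested miRNAs the 2 differences were weakly related (Pearson r 0.15, Spearman rho 0.15, across miRNAs, which are not independent).

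**Figure D4:**
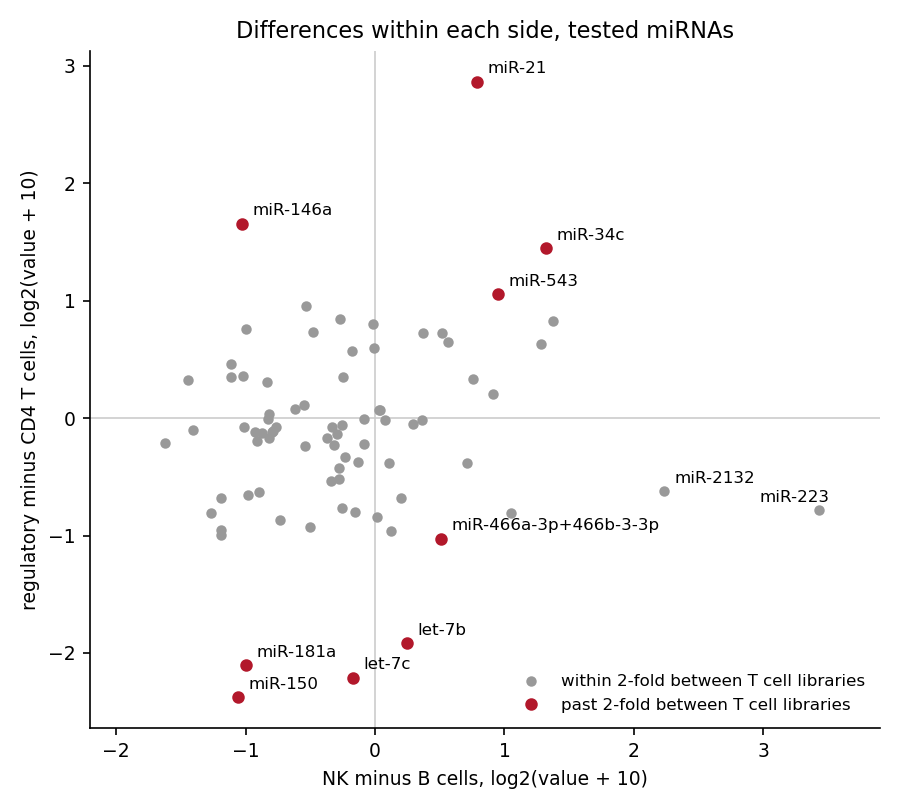
Log2 difference of regulatory minus CD4 T cells (vertical) against that of NK minus B cells (horizontal) for 79 tested miRNAs, on the log2(value + 10) scale. miR-34c and miR-543 are positive in both, miR-150 and miR-181a are negative in both, and miR-146a has opposite signs.

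Set against the other 3 populations, regulatory T cells were past 2-fold above the highest of them in 2 miRNAs (2.53%) and below the lowest in 0 (0%). These were miR-21, 3.00-fold over NK cells on the value + 10 scale, and miR-146a, 2.07-fold over B cells. CD4 T cells exceeded the other 3 in 3 miRNAs (3.8%) and were below them in 0: let-7c, 4.11-fold over B cells, let-7b, 3.37-fold over NK cells, and the miR-466a-3p and miR-466b-3-3p probe, 2.04-fold over regulatory T cells. Counts of 0 here come from comparing single libraries, without a test.

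NK cells exceeded the other 3 in 3 miRNAs (3.8%) and were past 2-fold below them in 0. The myeloid miR-223 was 10.8-fold over B cells, the next highest, on the value + 10 scale (ratio of signals 18.1, 13.5 to 24.6). The miR-23a signal was 320.08 in NK cells, against 125.52 in B, 109.21 in regulatory T and 66.96 in CD4 T cells. The third, miR-2132, had 63.47 in NK cells, against 22.32 in CD4 T, 11.01 in regulatory T and 5.61 in B cells, and its highest value in the 20 other libraries was 22.4. In the same library the erythroid miRNAs given above were above background. The nearest miRNA to a lower NK value was miR-15b, at 271.12 against 478.66 in B cells.

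B cells exceeded the other 3 in 4 miRNAs (5.06%) and were below them in 1 (1.27%). The haematopoietic miR-142-3p, required for normal B cell development in mice, had 1004.61 in B cells, against 437.28 in CD4 T, 405.64 in regulatory T and 371.76 in NK cells. Its highest value in the 20 other libraries was 423, so B cells had the highest of the 24, and the other arm, miR-142-5p, had 6.82 in B cells, against 20.19 in regulatory T, 8.27 in CD4 T and 11.79 in NK cells. Its counts were 28 in B cells, against 22, 20 and 13, and its signal in the 20 other libraries followed depth inversely (Spearman rho -0.80). The miR-350 signal was 124.30 in B cells, against 32.12, 38.85 and 33.55 in regulatory T, CD4 T and NK cells.
miR-142a-3p: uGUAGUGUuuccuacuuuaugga

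The miR-425 and miR-191 genes lie together in mice, and both were highest in B cells. The miR-425 signal was 44.36 in B cells, against 8.26, 4.55 and 9.97 in regulatory T, CD4 T and NK cells. The miR-191 signal was 72.63 in B cells, against 22.94, 15.71 and 30.83. The highest values of miR-425 and miR-191 in the 20 other libraries were 25.4 and 50.3, below B cells. The miRNA below the others was miR-467f, at 2.68 in B cells, under background, against 16.32 in NK, 18.35 in regulatory T and 39.68 in CD4 T cells.

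**Figure D5:**
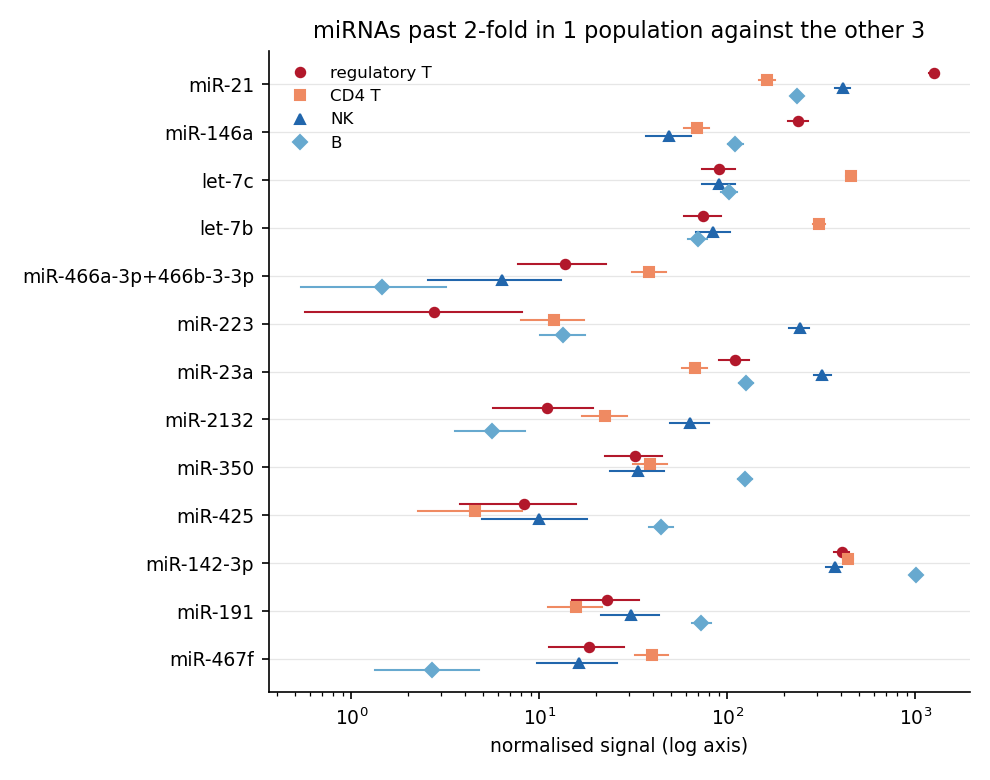
Normalised signal (log axis) of the 13 miRNAs past 2-fold in 1 population against the other 3, by library, with exact 95% Poisson intervals of the counts. From top to bottom, miR-21 and miR-146a lead in regulatory T cells, let-7c, let-7b and the shared miR-466a-3p and miR-466b-3-3p probe in CD4 T cells, miR-223 to miR-2132 in NK cells and miR-350 to miR-191 in B cells, while miR-467f is low in B cells.

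Without the NK library, regulatory T cells were past 2-fold from the other 2 in 6 miRNAs (4 above, 2 below), CD4 T cells in 3 (3 above, 0 below) and B cells in 12 (7 above, 5 below). Between NK and B cells directly, 6 miRNAs were past 2-fold higher in NK cells (7.59%) and 13 lower (16.5%), so B cells, the deeper library, had the greater number. The 6 were miR-223, miR-2132, miR-466g, miR-34c, miR-23a and miR-467f. Of these, miR-466g and miR-34c are the 2 probes with near-level counts in all 4 libraries, at 42 and 1262 in NK cells, against 35 and 1859 in B cells. The 13 lower ones included miR-350 (B over NK 3.70, 2.65 to 5.32), miR-142-3p (2.70, 2.44 to 3.00), miR-26b (2.58, 2.07 to 3.26) and the shared miR-20a and miR-20b probe (2.34, 2.06 to 2.66).

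Over all 79 tested miRNAs, B cells had the highest of the 4 values in 32, CD4 T cells in 27, regulatory T cells in 10 and NK cells in 10. The deeper library of each side thus held most of the highest values. NK cells had the lowest value in 27, regulatory T cells in 19, B cells in 18 and CD4 T cells in 15. Correlation of log2 values over the 79 was highest between regulatory T and CD4 T cells (Pearson r 0.90) and between NK and B cells (0.90), and lowest between CD4 T and NK cells (0.85).

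The probes with the highest signal were largely common to all 4 populations. Of the 10 highest in each library, 6 were shared by all 4: let-7d, let-7g, miR-150, miR-16, miR-34c and miR-720, the last now regarded as a transfer RNA fragment. The near-level counts of miR-34c described above apply here too. Because probes are not calibrated against each other, these ranks and shares describe probe signal and not numbers of molecules. The 10 highest held 65.9% of mouse miRNA counts in regulatory T, 66.2% in CD4 T, 60.2% in NK and 64.8% in B cells. In regulatory T cells let-7g had the highest share, 12.9% (95% Clopper-Pearson interval 12.3 to 13.4), in CD4 T cells miR-150 with 15.8% (15.4 to 16.1), in NK cells let-7g with 10.7% (10.2 to 11.2) and in B cells let-7g with 14.6% (14.4 to 14.9). In regulatory T cells miR-150 held 3.33%. Among the 10 highest, miR-21 appeared in regulatory T cells, at 8.52%, and in NK cells, at 3.36%, but not in CD4 T or B cells. The miR-342-3p share reached the 10 highest in NK (4.06%) and B cells (3.76%) but in neither T cell library.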

How the data were processed

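Per the labels, total RNA was extracted with the mirVana kit. The deposited table held nCounter values as a normalised signal, which behaved as whole counts multiplied by 1 factor per library. Neither labels nor headers say how that factor was set or how background was treated. Dividing by the value of 1 count gave whole numbers for 100% of values (tolerance 0.1), and on these recovered counts edgeR called 0 miRNAs. The lowest recovered count was 1 in each library, so no count was 0, and whether a floor had been set was not tested. The deposited MG400 panel, also a signal, was read for the sort check only. The other deposited tables were not used.

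Mouse miRNAs with a mean signal above 10 over the 4 libraries (79 of 566) were tested on log2(value + 10) with limma 3.58.1 (R 4.3.3, lmFit, eBayes with a trend), Benjamini-Hochberg adjusted, at an adjusted p under 0.05. For low miRNAs a fold change on that scale is an underestimate. Single libraries were compared by a 2-fold limit, with exact 95% Poisson or conditional binomial intervals. The fit was run on simulated libraries drawn around a common mean with a set spread. Each real side holds different populations measured once, so that run does not show how the fit performs here. Named miRNAs were the 10 largest differences each way without overlap, 6 each way per population, 10 each way between the T cell libraries, the 10 highest per library, the given markers and members of lists. The comparison, its members and the lists were chosen with earlier results of these data known. Alternatives used edgeR 4.0.16 and DESeq2 1.42.0, other scalings, pseudocounts, minimums and left-out libraries.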

Additional observations from a re-analysis of the deposited data

How the results depend on the processing

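The number of miRNAs called between T cells and B and NK cells, 1 as reported, was 2 with a pseudocount of 1, 0 with a pseudocount of 50, 5 with no minimum, and 0 with a mean above 50. It was 0 after rescaling to the total, to the 100 highest miRNAs or by quantiles, 0 without a trend, 0 by edgeR and 9 by DESeq2, and it ran from 0 to 6 with 1 library left out. The difference of miR-132 kept its sign in 15 of 15 settings (0.64 to 3.59) and was not called in 8. The small difference of miR-150 turned negative when rescaled to the total (-0.12), to the 100 highest (-0.10) or by quantiles (-0.27), and ran from -1.16 (without CD4 T cells) to 1.22 (without regulatory T cells) with 1 library left out, at -0.50 without NK cells. That of miR-181a ran from -1.39 (without CD4 T cells) to 0.72 (without regulatory T cells), and was positive without B cells (0.16) and by DESeq2 (0.085). Of 341 values of named miRNAs over the alternatives, 305 kept direction and call, 8 lost the call, 20 gained it and 8 reversed. Only miR-132 had a call to lose, so for the other named miRNAs a kept result means no call in either setting. The cause of these shifts was not tested.

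Counts past 2-fold against the other 3 also moved. For B cells (5) the count was 9 with a pseudocount of 1, 1 with 50, 2 with a mean above 50, 3 scaled to the 100 highest, 1 by quantiles, 0 at 4-fold and 12 without NK cells (added after seeing the data). For CD4 T cells (3) it was 8 with a pseudocount of 1 and 1 at 4-fold. For NK cells (3) it was 5 with a pseudocount of 1, 6 with no minimum and 1 at 4-fold. For regulatory T cells (2) it was 5 and 1 with pseudocounts of 1 and 50, 0 at 4-fold and 6 without NK cells. Regulatory against CD4 T cells (9) gave 22 with a pseudocount of 1 and 4 at 4-fold. Rescaling to the total moved the median regulatory minus CD4 T difference from -0.11 to 0.02. No paired analysis was possible because each population has 1 library and the replicate numbers of a side do not link it to the other.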

Other observations

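The probes for the 4 reference mRNAs on the same panel are on the same scale, and they stand for these transcripts only. Actb had 1383 in regulatory T and 2734 in CD4 T cells, against 1005 in NK and 1279 in B cells. B2m, part of class I molecules, had 770 and 1299, against 529 and 588, and Gapdh had 76.2 and 89.3, against 42.6 and 43.6. The ribosomal protein gene Rpl19 had 399 and 1222, against 296 and 509. For Actb, B2m and Gapdh both T cell libraries lay above NK and B cells, and for each of the 4 probes CD4 T cells were highest and NK cells lowest.

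The lipid phosphatase gene Inpp4b, chosen after its values were seen, had a signal of 4439 in regulatory T and 3877 in CD4 T cells on the MG400 panel, against 167 in NK and 343 in B cells.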
